A study of Mus musculus with 4 samples.

Results

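The genes described here are 48 genes of DNA replication, chosen by symbol, for their known role, from the 18042 genes of the deposited table. They cover the helicase, its loaders, the origin recognition complex, the replicative polymerases, the sliding clamp and its loader, nucleotide synthesis, lagging-strand maturation, single-strand binding, the hemimethylated DNA reader Uhrf1 and the E cyclins. All 48 are in the table, and all 48 passed the filter on low values. Their transcripts were measured by RNA-seq in the hippocampal dentate gyrus of C57BL/6 mice aged 14 days after birth. There were 2 wild-type mice (WT) and 2 mice in which Eed had been knocked out conditionally (Eed cKO). The Eed protein belongs to the core of Polycomb repressive complex 2, the methyltransferase for lysine 27 of histone H3. What drove the deletion, which exons it removed and hence which cells lost Eed is not given in the sources used here. The comparison asks how replication transcripts differ between dentate gyri with and without this deletion.

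DNA is copied once per cell cycle. In G1 the origin recognition complex, Cdc6 and Cdt1 load the ring of Mcm2 to Mcm7 onto origins, and geminin (Gmnn) blocks reloading. In S phase Cdc45 and the GINS complex turn the ring into an active helicase, and the polymerases, the clamp Pcna and its loader copy both strands. Many of these genes are transcribed through E2F factors as cells enter S phase, and in the postnatal dentate gyrus neural stem cells and intermediate progenitors that give rise to granule neurons are among the dividing cells.

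The deposited group means allowed the whole reads of each library to be recovered. The wild-type libraries are called WT A and WT B below and the knockout libraries cKO A and cKO B, and these letters carry no link to the replicate numbers in the titles. The libraries held between 17263273 and 17789587 counts. Eed had 251 and 301 counts in the WT libraries against 133 and 142 in the Eed cKO libraries, or 50.2% of the WT level (log2 fold change -0.98 ± 0.14 SE, adjusted p = 0.0189 in limma). Single libraries stood apart, for which the labels give no reason. Xist, expressed in females, had 3809 counts in cKO A, while the other 3 libraries had 8 to 11. Ttr, a choroid plexus transcript, had 110 counts in WT B and between 23697 and 35706 in the others. In bulk tissue, fewer cells of a type and less RNA per cell cannot be told apart. Replicates are biological by the design text of the series, and p-values rest on the spread between these 4 libraries only. In limma that spread is not the gene's alone. Each gene's variance is drawn toward that of genes with similar counts (4 prior against 2 residual degrees of freedom).

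Most replication genes sat slightly lower in Eed cKO, and 3 passed the test. These were the helicase subunits Mcm6 and Mcm7 and the ribonucleotide reductase subunit Rrm2. The test was limma on log2(normalized count + 1), with Benjamini-Hochberg adjustment over all 15020 genes tested and a threshold of 0.05. The same 3 were called by edgeR's quasi-likelihood test on the recovered reads. A normalized count is the read count divided by the library's size factor. The members called lower were 3 of 48, or 6.25%, where 2.90% of all tested genes were called lower. None of the 48 was called higher, where 3.54% of all tested genes were. Over both directions the members' 6.25% stood beside 6.44% of all genes, so the share called was close to the background. At an unadjusted p under 0.05, 9 members were lower (18.8%, against 12.4% of all genes) and 2 were higher (4.17%, against 12.4%). The 2 higher ones were Gmnn and Rfc2. All 4 libraries separated by group, with both Eed cKO values below both WT values, in 25 members (52.1%, against 29.0% of all genes). The reverse separation was seen in 4 members, Gmnn, Orc5, Rfc2 and Rfc5 (8.33%, against 27.8%). The log2 fold change was below 0 in 38 of 48 members (79.2%), where it was below 0 in 50.5% of all tested genes. The members' median log2 fold change was -0.15, and that of all tested genes was -0.003.

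**Figure D1:**
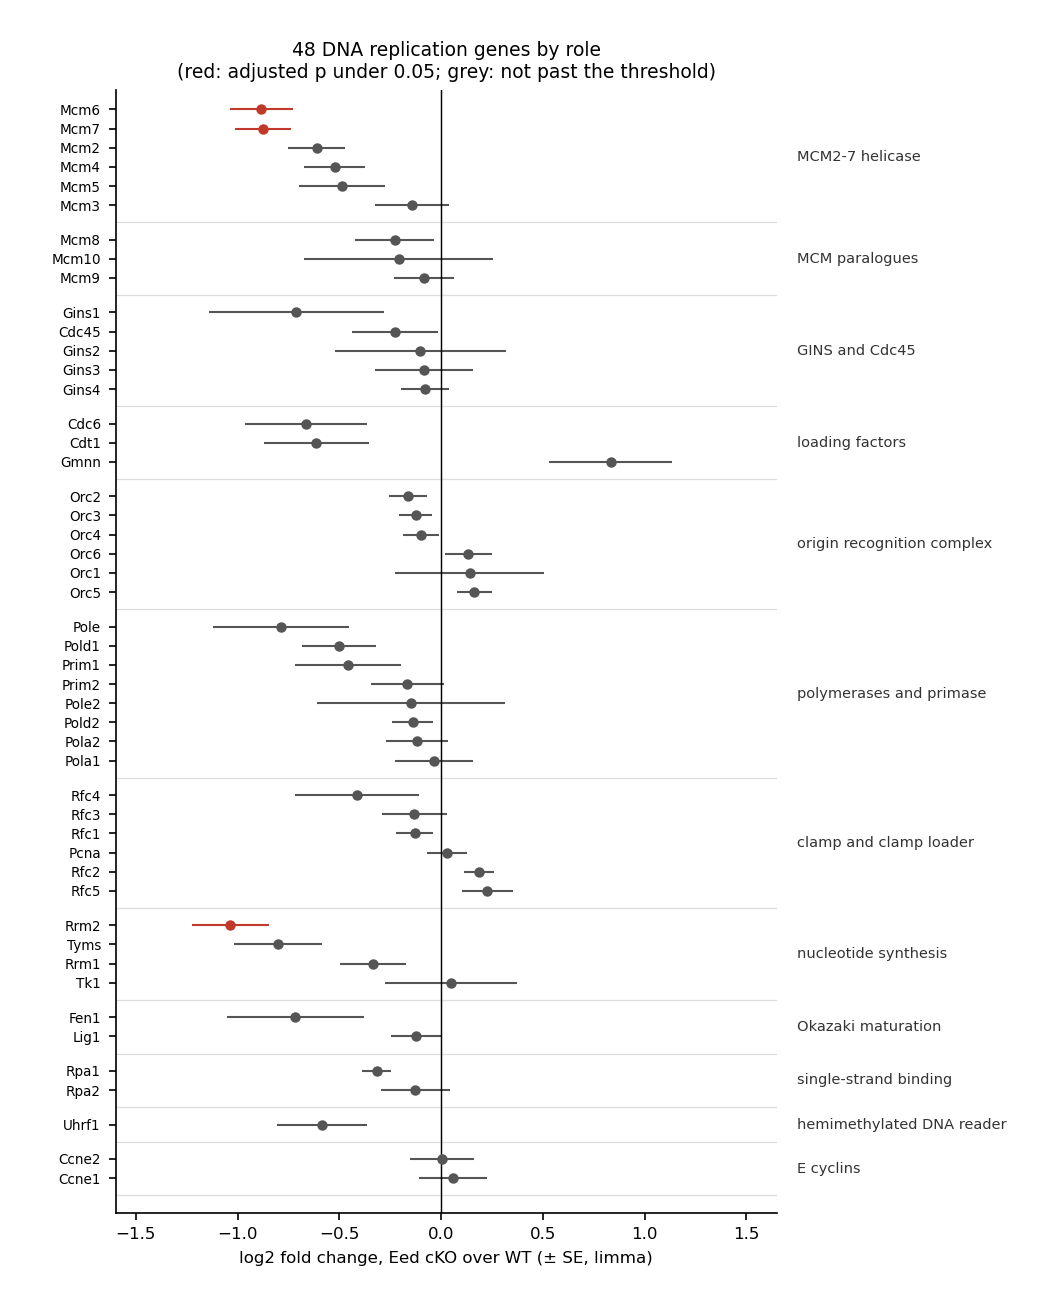
The difference of Eed cKO from WT on the log2(normalized count + 1) scale is plotted for each of the 48 replication genes, grouped by role, with bars of ± 1 SE from limma. Mcm6, Mcm7 and Rrm2, in red, passed an adjusted p of 0.05, and Gmnn, at 0.83, is the gene farthest to the right. The label MCM paralogues groups Mcm8, Mcm9 and Mcm10 by name only.

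The 6 subunits of the MCM2-7 ring all had a log2 fold change below 0, and Mcm6 and Mcm7 passed the test. Mcm6 (GRCm38 chromosome 1, 128331590 to 128359664, minus strand) had 324 and 402.6 normalized counts in WT A and WT B. In cKO A and cKO B it had 212.5 and 179.7. Both Eed cKO values lay below both WT values. The mean was 363 ± 55.6 in WT and 196 ± 23.2 in Eed cKO (SD, n = 2, normalized counts), 54.0% of the WT mean (log2 fold change -0.88 ± 0.15, adjusted p = 0.0308 in limma). Mcm7 (chromosome 5, 138164583 to 138172422, minus strand) had 256.6 and 306.9 normalized counts in the WT libraries and 154.6 and 150.5 in the Eed cKO libraries. Its groups were separate too, and the Eed cKO libraries differed from each other by less than the WT libraries did. The mean went from 282 ± 35.6 to 153 ± 2.88 normalized counts (SD, n = 2), 54.2% of WT (log2 fold change -0.87 ± 0.14, adjusted p = 0.0226 in limma). In the authors' deposited table the adjusted p was 0.00251 for Mcm6 and 0.00619 for Mcm7. The calls depended on single libraries. In limma, Mcm6 had an adjusted p of 0.0161 without WT A, 0.0574 without WT B, 0.114 without cKO A and 0.186 without cKO B. Mcm7 had 0.0162, 0.0493, 0.13 and 0.152 in the same order. Neither passed in limma without a trend (0.101 for Mcm6, 0.0722 for Mcm7) or with a term for cKO A (0.234 and 0.245), and Mcm6 did not pass without a filter (0.065). Without cKO A, the library with Xist reads, the log2 fold changes were -1.003 for Mcm6 and -0.89 for Mcm7. The term for cKO A gave the same log2 fold changes, since it fits that library exactly. Without WT B, the library low in Ttr, they were -0.73 and -0.75.

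The other subunits had smaller differences. Mcm2 had 188.2 and 194.3 normalized counts in WT and 132.7 and 117.4 in Eed cKO, with separate groups (log2 fold change -0.61 ± 0.14, adjusted p = 0.0617 in limma). Mcm4 had 225.9 and 281 against 182.6 and 167.6, also separate (log2 fold change -0.52, adjusted p = 0.103 in limma). It passed when WT A was left out (adjusted p = 0.049 in limma). Mcm5 had 126.8 and 136.5 against 111.7 and 78.28, separate but with the Eed cKO libraries far from each other (log2 fold change -0.49, adjusted p = 0.221 in limma). Mcm3 was the subunit whose groups overlapped, with 109 and 123.6 normalized counts in WT and 116.7 and 94.34 in Eed cKO. Its log2 fold change was -0.14 with a 95% interval from -0.59 to 0.30, and it was 0.01 without cKO B. The interval leaves room for a decrease larger than that seen for Mcm4.

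**Figure D2:**
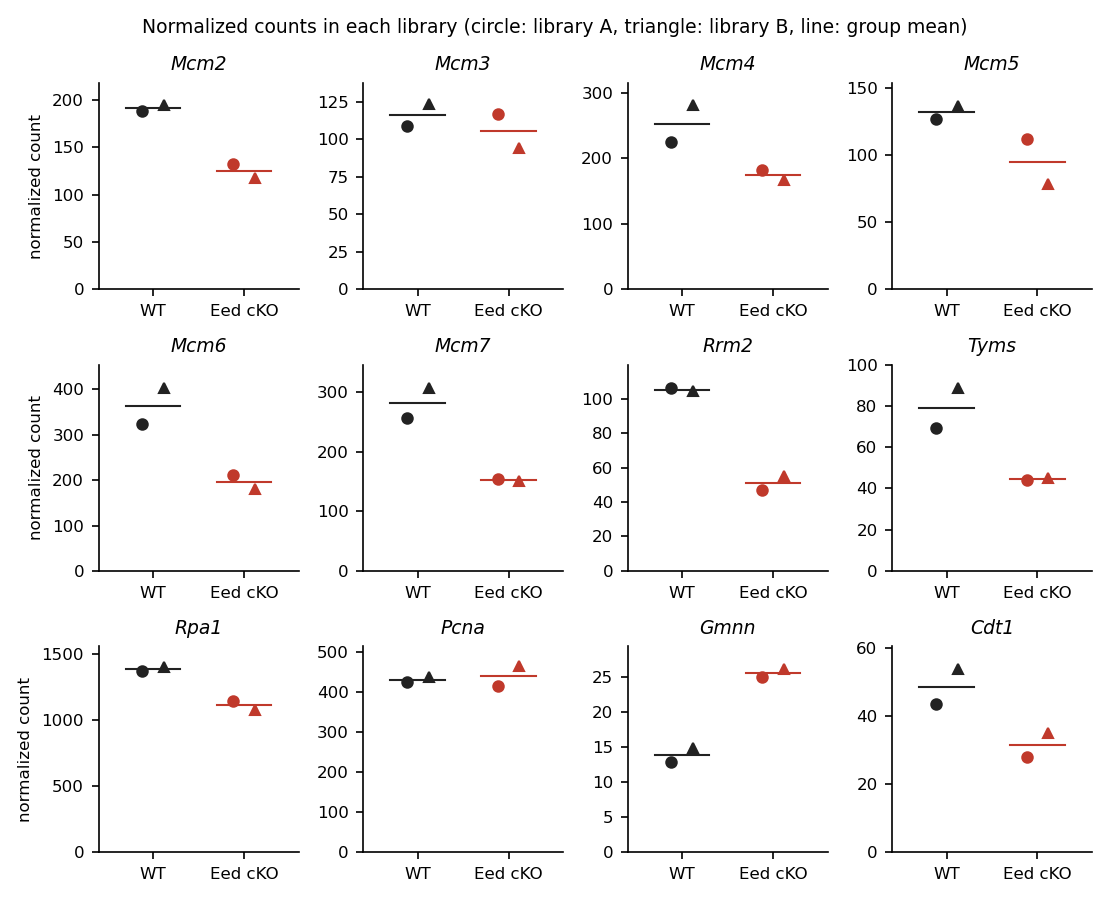
Normalized counts per library are plotted for the 6 helicase subunits and for Rrm2, Tyms, Rpa1, Pcna, Gmnn and Cdt1, with each axis starting at 0, circles for library A, triangles for library B and a line at the group mean. The Eed cKO points of Mcm6 (212.5 and 179.7) lie below the WT points (324 and 402.6), while the points of Mcm3 and Pcna overlap between the groups.

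Summed over the 6 subunits, the ring's transcripts took 1242 and 1450 reads in WT A and WT B and 913 and 785 in cKO A and cKO B. The exact 95% Poisson intervals, which cover counting error only, ran from 1174 to 1313 and from 1376 to 1527 in WT. In Eed cKO they ran from 854.7 to 974.2 and from 731 to 841.9, below both WT intervals. In normalized counts the Eed cKO sum was 63.5% of WT. The other 42 members summed to 92.6% of WT. No test was made of these sums.

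Each subunit's share of the summed MCM2-7 normalized counts was set side by side as a description. Mcm3 supplied 8.86% and 8.55% in WT and 12.8% and 12% in Eed cKO. Mcm6 supplied 26.3% and 27.9% in WT against 23.3% and 22.8%, and Mcm7 supplied 20.9% and 21.2% against 17% and 19.1%. Mcm4 supplied 18.4% and 19.4% in WT against 20% and 21.3%. The groups did not overlap for these 4 subunits, and they overlapped for Mcm2 and Mcm5. Shares are parts of a fixed total, so lower shares of some subunits raise those of others. Mcm4's share was higher in Eed cKO while its normalized counts were lower. Separate groups are also common here. In normalized counts, 29.0% of all tested genes were separate and lower and 27.8% separate and higher. The ratio of Mcm7 to Mcm3 normalized counts was 2.35 and 2.48 in WT and 1.32 and 1.6 in Eed cKO. The ratio of Mcm6 to Mcm3 was 2.97 and 3.26 in WT and 1.82 and 1.9 in Eed cKO. Both ratios gave a two-sided exact permutation p of 0.333, the smallest this design allows, and the pairs were chosen after their values were seen. Per kilobase of exon, the levels in WT were 77.9 normalized counts for Mcm6, 70.6 for Mcm4 and 63.7 for Mcm7. They were 33.0 for Mcm5, 31.0 for Mcm3 and 27.5 for Mcm2. The divisor was the joined length of all annotated exons of a gene, 6956 bases for Mcm2 and 3752 for Mcm3. The order of the genes depends on these lengths. Neighbours in this order overlapped between the WT libraries, apart from Mcm7 above Mcm5 and Mcm3 above Mcm2. In each WT library Mcm6 had the higher level per kilobase of Mcm6 and Mcm4 (69.4 against 62.9 in WT A, 86.3 against 78.3 in WT B). In each Eed cKO library Mcm4 had the higher one (50.9 against 45.5 in cKO A, 46.7 against 38.5 in cKO B).

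**Figure D3:**
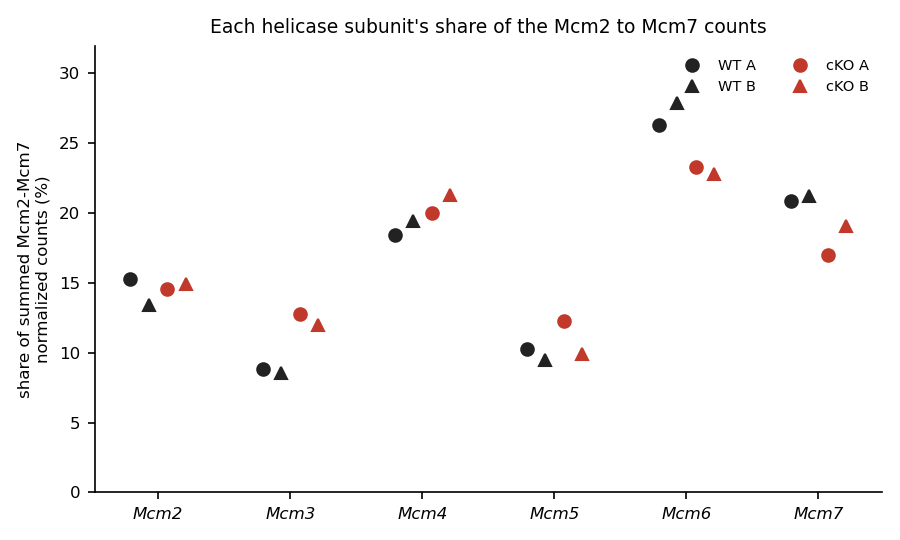
The share of each subunit in the summed normalized counts of Mcm2 to Mcm7 is plotted in percent for each library, with circles for library A and triangles for library B. Mcm3 lies at 8.86% and 8.55% in WT and at 12.8% and 12% in Eed cKO, and Mcm6 and Mcm7 lie lower in Eed cKO than in WT.

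The Mcm7 gene shares exon sequence with other genes. On its own strand lie the microRNA genes Mir25 and Mir93. On the opposite strand its exons overlap Cops6, which was at 1.12 times WT (adjusted p = 0.226 in limma), and Ap4m1, at 1.04 times WT (adjusted p = 0.781 in limma). Whether reads were counted by strand is not given in the sources used here, so reads of such pairs cannot be told apart. In all, 16 members have exons that overlap a gene on the other strand. Processed pseudogenes with at least 95% identity over at least 300 bases exist for 6 members, Cdc6, Mcm7, Pcna, Rfc5, Rrm2 and Uhrf1, and none of those pseudogenes is in the deposited table. Tyms had matches of at least 95% identity, over 330 to 361 bases, in transcripts of other genes. Of those genes, Jakmip2, A130077B15Rik, Wdr59, Map3k2 and Reep3 are in the deposited table. How the authors' counting placed reads that match both a member and such a copy is unknown.

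Promoters of Mcm6 and Mcm7, which were called, and of Mcm3, the subunit with overlapping groups, are shown because all 3 hold E2F-type letters. That of Rrm2, the third gene called, is shown because it holds none. The sequences are from RefSeq (GRCm38.p6), read 5′ to 3′ on the gene's strand from 250 bases before the start site to 30 bases after it. Capitals mark matches to TTTCCCGC, TTTCGCGC, TTTGGCGC or TTTGCCGC on either strand.
Mcm6 (chr1:128359676-128359955, minus strand): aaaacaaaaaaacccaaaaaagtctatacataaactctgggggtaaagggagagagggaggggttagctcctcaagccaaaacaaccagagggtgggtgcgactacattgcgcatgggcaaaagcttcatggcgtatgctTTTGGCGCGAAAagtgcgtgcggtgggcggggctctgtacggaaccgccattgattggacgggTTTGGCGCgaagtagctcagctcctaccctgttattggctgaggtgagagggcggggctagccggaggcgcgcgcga
Mcm7 (chr5:138171854-138172133, minus strand): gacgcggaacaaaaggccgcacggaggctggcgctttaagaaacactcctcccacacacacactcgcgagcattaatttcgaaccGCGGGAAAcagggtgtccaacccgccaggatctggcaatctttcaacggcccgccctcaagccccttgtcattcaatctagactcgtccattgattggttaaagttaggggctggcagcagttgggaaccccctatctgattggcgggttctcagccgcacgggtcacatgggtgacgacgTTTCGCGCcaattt
Mcm3 (chr1:20820283-20820562, minus strand): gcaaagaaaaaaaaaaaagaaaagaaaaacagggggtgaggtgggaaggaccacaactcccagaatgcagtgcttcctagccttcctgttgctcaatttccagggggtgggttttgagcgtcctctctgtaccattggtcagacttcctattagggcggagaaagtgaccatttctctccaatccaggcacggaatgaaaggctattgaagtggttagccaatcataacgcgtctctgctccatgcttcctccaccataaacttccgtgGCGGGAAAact
Rrm2 (chr12:24708004-24708283, plus strand): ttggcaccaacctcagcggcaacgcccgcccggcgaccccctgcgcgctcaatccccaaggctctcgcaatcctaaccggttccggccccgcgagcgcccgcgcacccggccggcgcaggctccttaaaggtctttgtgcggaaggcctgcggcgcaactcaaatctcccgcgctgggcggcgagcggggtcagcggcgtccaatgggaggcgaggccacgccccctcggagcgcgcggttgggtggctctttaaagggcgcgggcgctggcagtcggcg

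The Mcm6 window held 3 matches, beginning at -110, -106 and -47 from the RefSeq start site, the first 2 overlapping. That start lies upstream of the gene's 5′ end given above, which is from GENCODE. Bases just after the start were found in a GENCODE transcript for 41 of the members' 48 windows. The Mcm7 window held 2 matches, beginning at -165 and 17. A second RefSeq window of Mcm7 held none. The Mcm3 window held 2, beginning at 20 and 39, the latter beyond the stretch shown. RefSeq windows of 300 bases, reaching 50 bases past the start, were found for 39 of the 48 members. An E2F-type match lay in 16 of these 39 (41.0%), against 2.6% of 27025 genes. The members' windows were also richer in G and C, with a median of 60.7% against 52.7% over all windows. Among the ring subunits with a window, Mcm3, Mcm5, Mcm6 and Mcm7 held a match and Mcm2 did not. The hexamer TTTGAA, a core of cell cycle homology elements, lay in 5 of 39 members (12.8%) on either strand, against 20.2% of all genes, and a match to it cannot overlap one of the E2F-type letters. The 16 members with an E2F-type match had a median log2 fold change of -0.19, with 2 called. The 23 without one had a median of -0.14, with 1 called. A match is a description of letters, and no factor was measured.

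Nucleotide synthesis was the other role with a call. Rrm2, the small subunit of ribonucleotide reductase, which makes deoxyribonucleotides, lies on chromosome 12 (24708241 to 24714146, plus strand). It had 106 and 104.6 normalized counts in WT and 46.88 and 55.2 in Eed cKO. Both Eed cKO values lay below both WT values. The WT values lay closer together than counting error alone would typically leave them, so their SD is no measure of WT variability. The mean went from 105 ± 0.974 to 51.0 ± 5.88 normalized counts (SD, n = 2), 48.5% of WT (log2 fold change -1.04 ± 0.19, adjusted p = 0.0343 in limma). In reads, the Poisson intervals were 87.7 to 129 and 85.9 to 127 in WT and 34.5 to 62.5 and 41.4 to 71.6 in Eed cKO. Rrm2 was not called in the authors' deposited table (adjusted p = 0.0771) or in DESeq2 (0.0714). In limma it was not called when any 1 library was left out, while edgeR still called it without WT A. The limma adjusted p was 0.062 without WT A, 0.0713 without WT B, 0.183 without cKO A and 0.144 without cKO B, while the log2 fold change stayed between -1.15 and -0.92. Tyms, thymidylate synthase, had 69.35 and 88.69 normalized counts in WT and 43.89 and 45.16 in Eed cKO, with separate groups (56.4% of WT, log2 fold change -0.80 ± 0.22, adjusted p = 0.0917 in limma). Rrm1, the large reductase subunit, had 280.4 and 334.8 against 274.3 and 214.8, with cKO A close to WT A (log2 fold change -0.33, adjusted p = 0.264 in limma). Tk1, a salvage kinase for thymidine, had 21.8 and 35.87 against 27.93 and 30.11 and overlapped. The 4 genes together summed to 70.9% of WT.

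The loaders Cdt1 and Cdc6 had lower values in Eed cKO and the inhibitor Gmnn had higher ones, and none of them was called. Cdt1, which brings the ring to origins, had 43.59 and 53.81 normalized counts in WT and 27.93 and 35.13 in Eed cKO. Cdc6, an ATPase of the loading reaction, had 23.78 and 24.91 against 15.96 and 14.05. Both had separate groups with lower Eed cKO values, and neither passed (log2 fold change -0.61 and -0.67, adjusted p = 0.213 and 0.237 in limma). Gmnn, the inhibitor that binds Cdt1, had 12.88 and 14.95 normalized counts in WT and 24.94 and 26.09 in Eed cKO. Its 2 groups were separate in the opposite direction, at 183% of WT (log2 fold change 0.83 ± 0.30, adjusted p = 0.164 in limma). These are few reads. The Poisson intervals were 6.92 to 22.2 and 8.4 to 24.7 in WT and 16.2 to 36.9 and 17 to 38.1 in Eed cKO, and they overlap.

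The origin recognition complex, the ATPase that marks origins, was close to WT as a whole, and its normalized counts summed to 98.0% of WT. Of its 6 subunits 0 passed in limma, edgeR or DESeq2 and also 0 at an unadjusted limma p under 0.05. Orc4, the subunit with the most counts, had 681.6 and 760.3 in WT and 659.4 and 684.5 in Eed cKO, overlapping by a small margin (log2 fold change -0.10, 95% interval -0.31 to 0.11). Orc2 and Orc3 had log2 fold changes of -0.16 and -0.13 with lower, separate Eed cKO values, and Orc5 had 0.16 with higher, separate ones. Orc6 (0.13) and Orc1 (0.14) overlapped. Orc1 had between 11.9 and 17.0 normalized counts in each library, and its direction turned without cKO A (-0.09).

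Helicase activation factors showed no call. Cdc45, which binds the ring at firing, had 50.53 and 52.81 normalized counts in WT and 45.89 and 42.15 in Eed cKO, separate but close (log2 fold change -0.23, adjusted p = 0.555 in limma). Gins4, the GINS subunit with the most counts, had 235.8 and 219.2 against 213.5 and 216.8, separate by a small margin (log2 fold change -0.08, 95% interval -0.36 to 0.20). Gins1, Gins2 and Gins3 overlapped, with log2 fold changes of -0.71, -0.10 and -0.08. Mcm8, Mcm9 and Mcm10, which share the MCM name but are not subunits of the ring, had log2 fold changes of -0.23, -0.08 and -0.21. Mcm8 and Mcm9 act in homologous recombination and Mcm10 in fork start-up. Mcm8 had 81.24 and 75.73 normalized counts in WT and 60.85 and 73.27 in Eed cKO, separate by a small margin. Mcm9 had 131.8 and 139.5 normalized counts in WT and 134.7 and 121.4 in Eed cKO and overlapped. Mcm10 had 41.9 in cKO A and 16.06 in cKO B, with both WT values between them.

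All 8 polymerase and primase genes had a log2 fold change below 0, between -0.79 and -0.03, and 0 passed in limma, edgeR or DESeq2. Pold1, the catalytic subunit of polymerase delta, had 139.7 and 127.5 normalized counts in WT and 105.7 and 83.3 in Eed cKO, with separate groups (log2 fold change -0.50 ± 0.18, unadjusted p = 0.0324, adjusted p = 0.162 in limma). Pole, the catalytic subunit of polymerase epsilon, had 50.53 and 70.75 against 44.89 and 26.09, separate but wide within groups (log2 fold change -0.79 ± 0.34, adjusted p = 0.216 in limma). Their partner subunits were closer to 0. Pold2 had 390.3 and 356.7 against 330.2 and 347.3 (log2 fold change -0.14), and Pole2 had between 8.92 and 19.9 normalized counts in all libraries. Polymerase alpha starts each strand. Its subunits Pola1 and Pola2 had log2 fold changes of -0.03 and -0.12, and the primase subunits Prim1 and Prim2 had -0.46 and -0.17. The 8 genes summed to 85.2% of WT.

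The sliding clamp and its loader were at or above WT in sum, at 104% of the WT normalized counts. Pcna, the clamp, had 425 and 437.5 normalized counts in WT and 415 and 465.7 in Eed cKO, which overlapped (log2 fold change 0.03, 95% interval -0.21 to 0.27). The lower bound of this interval lies above the log2 fold changes of Mcm2, Mcm4, Mcm5, Mcm6 and Mcm7, but no test of the difference between genes was made. The loader subunit Rfc2 had 657.8 and 681.6 against 764.1 and 757.7, separate and higher in Eed cKO (log2 fold change 0.18 ± 0.07, unadjusted p = 0.0471, adjusted p = 0.195 in limma). Rfc5 was also separate and higher (0.23), Rfc1 and Rfc4 were separate and lower (-0.13 and -0.41), and Rfc3 overlapped (-0.13).

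Of the remaining members, Rpa1, the large subunit of the single-strand binding protein, came nearest to a call. It had 1370 and 1401 normalized counts in WT and 1146 and 1079 in Eed cKO, with separate groups (80.3% of WT, log2 fold change -0.32 ± 0.07, adjusted p = 0.0561 in limma). Its level per kilobase of joined exons was the highest of the 48 members in both groups. It was 248 normalized counts in WT and 200 in Eed cKO. Rpa2 overlapped (log2 fold change -0.13). Uhrf1, which reads hemimethylated DNA behind the fork, had 56.47 and 69.75 against 42.89 and 40.15, with separate groups (log2 fold change -0.59 ± 0.22, unadjusted p = 0.039, adjusted p = 0.178 in limma). Lig1, which seals Okazaki fragments, had 195.2 and 191.3 against 170.6 and 184.7, separate by a small margin (log2 fold change -0.12). Fen1, which trims their flaps, had 17.83 and 17.94 against 9.97 and 11.0, separate at a low count (log2 fold change -0.72, adjusted p = 0.25 in limma). Ccne1, an activating cyclin of Cdk2, had 227.9 and 248.1 against 287.3 and 213.8, and Ccne2 had 112 and 122.6 against 123.7 and 111.4. The E cyclins overlapped, with log2 fold changes of 0.06 and 0.00, and summed to 104% of WT.

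Beyond the 48 members, 45 further replication genes (polymerase accessory subunits, firing kinases, fork protection and repair-coupled factors) were listed, and 44 were tested. Of these 0 passed in limma, edgeR or DESeq2, with 8 at an unadjusted limma p under 0.05, all of them lower in Eed cKO. Over all tested genes 12.4% were lower and 12.4% higher at that unadjusted p. The median log2 fold change of the 44 was -0.13, close to the members' -0.15. Clspn, a checkpoint adaptor at the fork, had 41 and 62 reads in WT and 23 and 20 in Eed cKO (adjusted p = 0.0775 in limma). Esco2, a cohesin acetyltransferase, had 19 and 36 against 9 and 10 (adjusted p = 0.114 in limma). Both passed without WT A, and they are named because of that. Among 15 chromatin assembly genes 0 passed in limma, and the median was -0.20. An unadjusted limma p under 0.05 was seen for 4, all of them lower in Eed cKO. The nearest, Ssrp1, a subunit of the histone chaperone FACT, had an adjusted p of 0.0515 in limma and was called with TMM factors, with a filter of 50 normalized counts and without WT B.

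Of 19 E2F and pocket protein genes tested, 1 was called. Beside the lists of this paragraph, 2.90% of all tested genes were called lower and 3.54% higher in limma. E2f1, an activator of S phase genes, had 219 and 235 reads in WT and 98 and 139 in Eed cKO, with separate groups (52.6% of WT, log2 fold change -0.94 ± 0.20, adjusted p = 0.0485 in limma). That call was lost in limma with TMM factors (adjusted p = 0.0517), without a filter (0.0909), without a trend (0.124), with a term for the Xist-positive library (0.285) and without any 1 of the 4 libraries (0.0598 to 0.181). Of 34 mitosis genes 1 was called, the condensin subunit Ncapd2, with 663 and 662 reads in WT and 511 and 482 in Eed cKO (75.5% of WT, adjusted p = 0.0427 in limma). It was lost in DESeq2 (adjusted p = 0.113), and in limma without a filter (0.0666), without a trend (0.113), with the Xist term (0.258) and without any 1 library (0.0618 to 0.265). The mitosis median was -0.26, and 1 call of 34 was close to the share of all genes called lower. Of 17 G1/S cyclin and kinase regulator genes 4 were called higher and 0 lower in limma. They were Ccnd1, a D cyclin, and the kinase inhibitors Cdkn1a, Cdkn2a and Cdkn2b. Cdkn1a had 678 and 516 reads in WT and 1357 and 1232 in Eed cKO. Cdkn2a had 0 in both WT libraries and 135 and 149 in Eed cKO. Without a trend Ccnd1 and Cdkn1a lost their calls (adjusted p = 0.0791 and 0.0751 in limma), and with the Xist term 0 of the 4 were called (0.186 to 0.224). In limma 0 of the 16 then tested were called without cKO A and 0 without cKO B, where Cdkn2a no longer passed the filter.

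**Figure D4:**
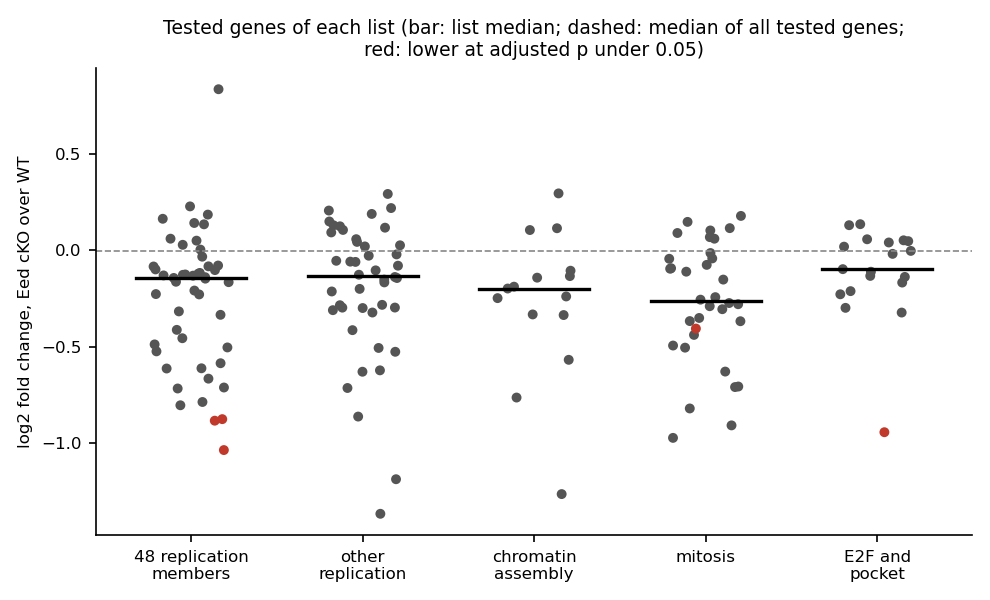
The log2 fold change of each tested gene is plotted for the 48 replication members and for 4 neighbouring lists, with a bar at each list's median and a dashed line at the median of all tested genes. The list medians lie between -0.26 (mitosis) and -0.10 (E2F and pocket), and genes called lower are in red.

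Markers of cell types of the dentate gyrus were read in the same libraries. Beside the counts below, 2.90% of all tested genes were called lower and 3.54% higher in limma. Of 5 intermediate progenitor markers, Eomes and Mfap4 were called lower, while Neurog2, Tac2 and Btg2 had log2 fold changes of 0.12, -0.09 and 0.02. The 5 summed to 1056 and 1264 normalized counts in WT and 889.8 and 784.8 in Eed cKO. Of 6 immature granule neuron markers 5 were called lower, with sums of 14200 and 15910 against 8650 and 8174. Of 6 mature granule neuron markers 3 were called lower, with sums of 7217 and 9702 against 4157 and 3596. Of 8 neural stem cell markers 1, Tfap2c, was called higher, 4 had log2 fold changes above 0 and 4 below, and the sums of 2766 and 3200 against 3048 and 3015 overlapped. Of 6 markers of oligodendrocyte precursors, which also divide at this age, 1, Sox10, was called higher and all 6 had log2 fold changes above 0, with sums of 11690 and 12260 against 14500 and 13170. Prox1, which defines granule neurons of the dentate gyrus, had 3381 and 4482 reads in WT and 925 and 860 in Eed cKO. It is among the mature markers summed above. Of the mature markers not called in limma, Calb1 overlapped (log2 fold change -0.19), while C1ql2 and Tdo2 were separate and lower (-0.66 and -0.72). The immature marker not called, Calb2, overlapped as well (0.14). Of 4 astrocyte markers 1, Slc1a3, was called lower, and of 3 meningeal markers 2 were lower and 1 higher. Of the oligodendrocyte, microglia, endothelium and choroid plexus markers 0 were called in limma. DESeq2 also called the microglia marker Cx3cr1 higher (adjusted p = 0.0416). It called the mature granule neuron marker C1ql2 (0.00708) and the astrocyte marker Aqp4 (0.0192) lower. The endothelial marker Pecam1 was called lower in edgeR (adjusted p = 0.049). Single markers were not followed through the other settings. No marker of these lists was at 0 in all libraries. The part of these cell types in the lower MCM2-7 and Rrm2 transcripts was not tested.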

How the data were processed

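Per the submitters' processing notes, HISAT2 2.1.0, DESeq2 1.2.0 and the build GRCm38 were used; how reads were counted, with which strand setting and annotation, is not given in the sources used here. The authors deposited 1 table with, per the file headers, each group's mean normalized signal, the log2 fold change and its error, the Wald score, and the p-value before and after adjustment. Whole reads of both libraries per group were recovered from the group means for 100% of the 18042 genes (tolerance 1e-08), since each mean is built from whole counts over 2 size factors. DESeq2 1.42.0 on those reads came within 6.76e-05 of every deposited log2 fold change and shared all 1047 deposited calls. Depth was 17263273 to 17789587 counts, with size factors from 0.996 to 1.01. No columns were left unmapped.

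The main test was limma 3.58.1 (R 4.3.3) with its intensity trend, applied to log2(normalized count + 1), which understates the change of low genes, with a filter that kept genes reaching 10 normalized counts in 2 or more libraries. The model held genotype alone, and Benjamini-Hochberg adjustment covered 15020 genes. Alternative settings were pseudocounts of 0.5 and 5, no filter, a filter of 50, no trend, TMM factors, edgeR 4.0.16, DESeq2, the deposited adjusted p-values, a model term for the Xist-positive library, and each library left out. The fits were tested on simulated data, with outcomes that are not reported here, so nothing in the text rests on them. Exon overlaps and lengths came from GENCODE M21, promoters from RefSeq, and near copies from blastn 2.17.0. Named genes were all 48 members, with full values for those called, those with an adjusted p under 0.1 and an abundant member per role, and the called genes of the further replication, E2F and pocket, mitosis and chromatin assembly lists. Clspn, Esco2, Ssrp1 and the G1/S and marker genes named were chosen after their values were seen. Members, lists and tests were chosen with earlier results of these data known.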

Additional observations from a re-analysis of the deposited data

How the results depend on the processing

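No paired analysis was possible because the recovered libraries cannot be tied to the replicate numbers of the titles. The number of members called was 3, and 1 without a filter (Mcm7), 0 without a trend (13 with an unadjusted p under 0.05) and 0 with a model term for the Xist-positive library (9 unadjusted); with a library left out it ran from 0 to 3 in limma and from 0 to 4 in edgeR, a choice added after seeing the data. It was 0 in both tools without cKO A or without cKO B. Over all genes 967 were called, and 473 without a filter, 221 without a trend, 0 with the Xist term (2145 unadjusted), 7 to 1498 in limma and 146 to 1723 in edgeR with a library left out. The Xist term marks cKO A alone and fits that library exactly. Its log2 fold changes are therefore those found without cKO A, and it is not a separate check. The cause was not tested. The Xist term turned the log2 fold change of Orc1 (-0.0898), Rpa2 (0.00595), Ccne1 (-0.153) and Ccne2 (-0.0718). Leaving out a library turned 13 members that were not called, whose ranges were -0.296 to 0.00822 (Mcm3), -0.87 to 0.46 (Mcm10), -0.58 to 0.37 (Gins2), -0.174 to 0.00523 (Gins3), -0.0898 to 0.371 (Orc1), -0.157 to 0.0900 (Pola1), -0.271 to 0.0358 (Pola2), -0.69 to 0.39 (Pole2), -0.0552 to 0.111 (Pcna), -0.30 to 0.40 (Tk1), -0.261 to 0.00595 (Rpa2), -0.15 to 0.27 (Ccne1) and -0.0718 to 0.0779 (Ccne2). Mcm6, Mcm7 and Rrm2 were below 0 under every setting run. Depth limits the 14 members with a mean under 50 normalized counts, and 37 of 48 intervals include 0.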
